A study of Mus musculus with 24 samples.

Results

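Broad H3K9ac domains, stretches of at least 5000 bp that were tiled by overlapping peaks of the acetylation of lysine 9 of histone H3 when all libraries were joined, were described in spheroids grown from the mouse mammary carcinoma line 4T1. The domains were chosen by length: the H3K9ac peaks of 12 libraries on chromosomes 1 to 19 and X were merged where they shared 1 bp or more, and merged regions of 5000 bp or more were kept. This gave 1775 domains of 38586 merged regions. The mark is placed on promoters and enhancers of active genes by acetyltransferases such as KAT2A, which take the acetyl group from acetyl-CoA. At most active genes it forms a narrow island around the transcription start site (TSS). Islands that reach far into the gene body are known from genes that are transcribed strongly or that define the identity of a cell, such as homeobox genes, and from clusters of housekeeping genes.

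The libraries came from 4 groups of 3 replicates, all collected on day 5. Scramble, CPT1a knockout and KAT2a knockout spheroids were grown with 75 µM palmitate. CPT1a knockout spheroids of the last group received 5 mM acetate, and the labels do not say whether their medium also held palmitate. The authors' legend to their plot of H3K9ac correlation names palmitate for CPT1a inhibition both without and with acetate. CPT1a carries long-chain fatty acids into mitochondria, where their oxidation yields acetyl-CoA, and acetate is another source of acetyl-CoA. The comparisons therefore ask whether loss of CPT1a or KAT2a alters H3K9ac and whether acetate returns it. All groups are derivatives of one cell line made with inducible Cas9 and drug-selected guides, the scramble cells included. Peak lists show no edits, so the knockouts could not be checked. The labels do not say whether replicates were separate cultures, so the p-values measure the spread between these libraries, which may be technical. A weaker mark in all cells and a mark lost from some cells cannot be told apart in such libraries.

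The strongest summits of 4 of the longest domains are shown to give an impression of the sequence beneath them. Each window holds 300 bases of the plus strand of GRCm38 (mm10) centred on the summit, with CG dinucleotides in capitals. The windows hold 16, 39, 5 and 29 CG dinucleotides in the order printed. The first lies in a region whose only annotated TSS is that of a long noncoding RNA (lncRNA), the next 2 in regions without any annotated TSS, and the last in a region with the TSSs of Mllt10 and Skida1.
AL805899.1, chr4:88937855-88938154: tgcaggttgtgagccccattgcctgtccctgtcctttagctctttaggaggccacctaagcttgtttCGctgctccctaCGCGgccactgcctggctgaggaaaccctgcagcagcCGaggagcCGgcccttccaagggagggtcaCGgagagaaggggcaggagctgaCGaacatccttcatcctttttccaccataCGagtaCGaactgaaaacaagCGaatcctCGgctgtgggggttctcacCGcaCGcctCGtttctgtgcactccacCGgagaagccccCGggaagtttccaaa
Domain near Ppara, chr15:85671570-85671869: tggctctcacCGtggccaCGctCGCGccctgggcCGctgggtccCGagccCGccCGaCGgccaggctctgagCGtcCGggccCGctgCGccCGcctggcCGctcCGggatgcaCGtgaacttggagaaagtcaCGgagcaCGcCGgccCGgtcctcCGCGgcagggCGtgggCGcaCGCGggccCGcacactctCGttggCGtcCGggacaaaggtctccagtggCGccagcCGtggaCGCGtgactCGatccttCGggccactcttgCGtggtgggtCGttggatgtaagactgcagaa
Domain near Klf14, chr6:31114159-31114458: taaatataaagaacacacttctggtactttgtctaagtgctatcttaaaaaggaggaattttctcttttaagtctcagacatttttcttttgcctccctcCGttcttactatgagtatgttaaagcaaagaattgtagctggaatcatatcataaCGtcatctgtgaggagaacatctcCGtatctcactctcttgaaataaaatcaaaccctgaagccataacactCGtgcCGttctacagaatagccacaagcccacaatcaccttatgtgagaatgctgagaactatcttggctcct
Mllt10/Skida1, chr2:18064781-18065080: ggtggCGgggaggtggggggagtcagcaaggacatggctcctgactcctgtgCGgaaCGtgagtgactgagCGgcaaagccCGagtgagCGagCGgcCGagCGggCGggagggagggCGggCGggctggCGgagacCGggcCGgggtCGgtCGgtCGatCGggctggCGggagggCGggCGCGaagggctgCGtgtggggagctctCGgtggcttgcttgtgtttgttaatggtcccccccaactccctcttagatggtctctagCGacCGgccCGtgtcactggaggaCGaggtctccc
The CG-rich window near Ppara and the CG-poor window near Klf14 thus both sit in domains that lack a TSS.

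Of the domains, 44 held 48 microRNA (miRNA) hairpins of RefSeq (GRCm38.p6), and 47 of these hairpins had a mature sequence in the table used. The 83 mature sequences had 81 different seeds, which are bases 2 to 8 and guide the pairing with target mRNAs. The miRNAs whose domains are described further on are shown with the seed in capitals. let-7e-5p and let-7i-5p lie on different chromosomes and share a seed, as do miR-15b-5p and miR-16-5p, whose hairpins lie in 1 domain.
miR-21a-5p: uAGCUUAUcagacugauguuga
miR-125b-5p: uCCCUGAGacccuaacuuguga
miR-99a-5p: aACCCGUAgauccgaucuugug
miR-210-3p: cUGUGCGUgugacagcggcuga
miR-22-3p: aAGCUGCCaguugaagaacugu
let-7e-5p: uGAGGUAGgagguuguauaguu
let-7i-5p: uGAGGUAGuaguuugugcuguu
miR-15b-5p: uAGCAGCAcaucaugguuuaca
miR-16-5p: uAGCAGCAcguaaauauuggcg
Hairpins were found in 2.48% of domains and in 0.750% of the 8134 regions of 2 to 5 kb that all 12 libraries called. Per Mb of sequence there were 4.05 in domains and 2.38 in those regions.

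The lists held 16201 to 34330 peaks each. No read depth accompanies them, so a calling depth was recovered from the deposited fold enrichments and p-values as the background pileup at which a list was called. It ranged from 1.87 to 2.52 in scramble, from 0.554 to 1.70 in CPT1a knockout, from 0.660 to 1.91 with acetate and from 1.02 to 1.81 in KAT2a knockout. Scramble replicate 1 was the deepest and CPT1a knockout replicate 3 the shallowest. The labels name no batch, so batch and group cannot be told apart. The promoters of 8 of 10 epithelial marker genes carried a peak in all 12 libraries, among them Epcam, Cdh1 and the keratin genes Krt8 and Krt18. Krt14 had one in 3 libraries and Esrp1 in 10. No promoter of 7 leukocyte, 5 endothelial and 4 neuronal markers had a peak in any library. Of 6 fibroblast markers, Pdgfra had one in 12 libraries, Col1a1 in 11 and the other 4 in none.

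Most domains reached their length through peaks of scramble libraries. The length ran from 5000 to 33376 bp with a median of 5916 bp, 105 reached 10000 bp and the 10 longest measured 22197 bp or more. They made up 21.3% of the length of all merged regions and 14.7% of the 12098 regions called in all 12 libraries. All domains but 1 were called in every library. The exception, a region inside Inf2 (chr12:112592177-112599405), had no peak in CPT1a knockout replicate 3. The median domain had 2713 bp that were covered in all 12 libraries, and 146 domains had 5000 bp or more of such sequence.

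A stretch of 5000 bp or more was reached by the merged peaks of the 3 scramble libraries alone in 1329 domains (74.9%), of CPT1a knockout alone in 310 (17.5%), of the acetate group alone in 437 (24.6%) and of KAT2a knockout alone in 458 (25.8%). Only scramble reached it in 893 domains, all 4 groups did in 251, and no group alone in 335. A single peak of that width was present in at least 1 library for 1195 domains, and for 467 of these it was found in scramble replicate 1 and in no other library. Without the list of scramble replicate 1 the same merging gave 1242 domains, and leaving out any other single list gave 1594 to 1775. The 9 lists outside scramble gave 635.

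The share of the summed domain length under the peaks of a library was 95.8%, 79.8% and 86.6% in scramble. It was 65.2%, 67.4% and 50.2% in CPT1a knockout, 70.8%, 74.3% and 62.9% in KAT2a knockout and 71.1%, 62.1% and 72.6% with acetate. All 3 scramble libraries thus lay above the other 9, which is given without a test, since the peaks' extents chose the domains. The lowest value of each of the other groups belonged to its library with the lowest calling depth. Scramble replicates 2 and 3 split a domain into 2.67 and 2.65 peaks on average, whereas scramble replicate 1 used 1.72 and the other 9 libraries 1.63 to 2.36.

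**Figure D1:**
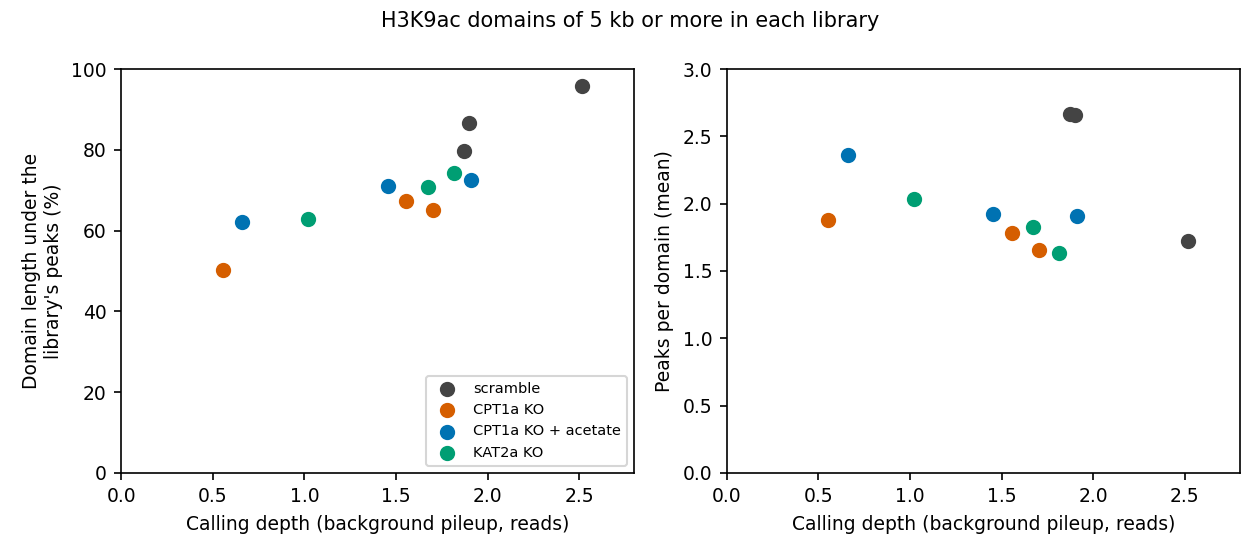
Domain length under the peaks of each library (left, percent) and mean number of peaks per domain (right) against the calling depth, with 1 point per library coloured by group. The 3 scramble libraries have the highest covered shares, from 79.8% to 95.8%, and also 3 of the highest 4 calling depths.

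To compare coverage without this circularity, domains were rebuilt by the same length rule from the 6 lists of the 2 groups that a comparison does not use. In 615 such domains, CPT1a knockout libraries covered 85.0%, 87.6% and 66.4% and scramble libraries 96.7%, 90.4% and 90.4%. The means of 79.7% ± 11.5 and 92.5% ± 3.69 (SD, n = 3) differed by -12.8 points, with an exact permutation p of 0.1 (two-sided, 20 assignments), the smallest that 3 libraries against 3 allow, and 0.4 after Benjamini-Hochberg adjustment over the 4 comparisons. Without CPT1a knockout replicate 3 the difference was -6.21. With the lists thinned to an equal calling depth it was -11.5. This thinning drops whole weak peaks and leaves the extents of the others as called. It therefore cannot show how depth affects covered length. In 518 domains, KAT2a knockout covered 90.5% ± 4.93 and scramble 93.7% ± 3.10, a difference of -3.20 (exact permutation p = 0.6, adjusted 0.6). In 1695 domains, acetate covered 68.8% ± 5.44 and CPT1a knockout 61.4% ± 9.19, a difference of 7.46 that came to 2.18 without CPT1a knockout replicate 3 (exact permutation p = 0.3, adjusted 0.6). In 513 domains, acetate covered 89.8% ± 5.35 and scramble 93.7% ± 3.31 (difference -3.86, exact permutation p = 0.6, adjusted 0.6). None of the 4 differences passed an adjusted p of 0.05, and the last 3 were smaller than the pooled SD of the groups. The number of peaks per rebuilt domain differed from scramble by -0.0981 in CPT1a knockout, -0.203 in KAT2a knockout and 0.140 with acetate, and acetate exceeded CPT1a knockout by 0.277 (exact permutation p from 0.3 to 0.8, all adjusted 0.8).

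Domains reached further into the gene than away from it. In the 1164 domains with the TSS of 1 coding gene, the domain stretched a median of 1959 bp upstream and 4010.5 bp downstream of the TSS. Where a gene had several TSSs in the domain, the most upstream was used, which lengthens the downstream arm. In 1027 of them (88.2%) the downstream arm was longer, and 278 had a downstream arm of 5000 bp or more against 23 with such an upstream arm. The 6184 regions of 2 to 5 kb with 1 coding gene had arms of 937 and 2293 bp, and 93.6% of them were longer downstream. The asymmetry was therefore not particular to long regions. The genes under domains were somewhat longer, with a median of 33316 bp against 28346.5 bp. The strongest summit lay a median of 508.5 bp downstream of the TSS and was downstream in 88.7% of domains. In 1613 domains at least 6 libraries had their strongest summit within 500 bp of it, and in 501 all 12 did.

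At 3000 bp downstream of the TSS, 84.3%, 61.6% and 72.3% of these domains were covered in the scramble libraries. The shares were 35.6%, 37.7% and 20.9% in CPT1a knockout, 46.0%, 36.1% and 48.8% with acetate and 42.2%, 45.4% and 33.7% in KAT2a knockout. At the TSS itself scramble had the lowest mean, with 76.7% ± 10.2, against 94.8% ± 4.00 in KAT2a knockout, 90.4% ± 5.71 with acetate and 92.4% ± 6.24 in CPT1a knockout (SD, n = 3). Libraries overlapped there, since scramble replicate 1 (88.4%) lay above CPT1a knockout replicate 3 (85.2%) and acetate replicate 2 (83.8%). At 1000 bp downstream all groups were between 96.7% and 98.5%. The group means thus differed at the edges and at the TSS, and by less than 2 points at this position downstream. Because edges decided which regions became domains, these shares carry no test.

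**Figure D2:**
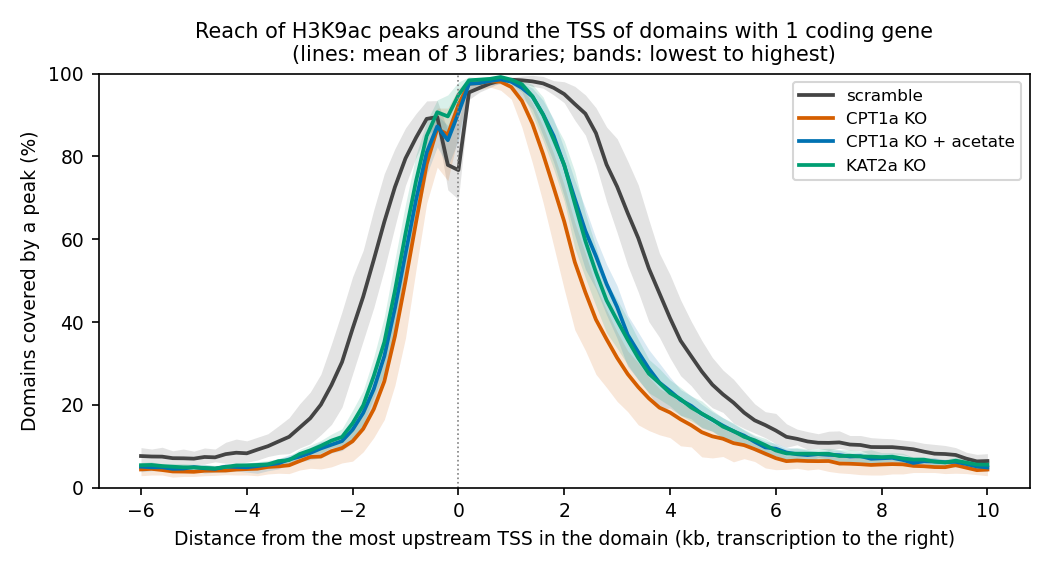
Share of the 1164 domains with 1 coding gene that is covered by a peak (percent) against the distance from the most upstream TSS in kb, with transcription to the right. Lines give the mean of 3 libraries and bands the lowest to highest library. Scramble extends furthest on both sides, dips at the TSS to 76.7% and reaches 72.7% at 3 kb downstream, where CPT1a knockout reaches 31.4%.

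The longest domain, 33376 bp (chr4:88928146-88961521), held the TSS of the lncRNA AL805899.1, with the hairpin of Mir31 17484 bp away and the nearest coding TSS, that of the interferon gene Ifne, 47945 bp away. A domain of 30740 bp (chr6:52191947-52222686) held Hoxa3, Hoxa5, Hoxa6 and Hoxa7, homeobox genes that pattern the body axis. The domain over Nfix, a nuclear factor I gene, measured 32561 bp. Trps1 (27258 bp) and Gata3 (24760 bp) encode GATA-type zinc finger factors, of which Gata3 sustains luminal mammary cells. Mllt10 and Skida1 (23945 bp) and Lrig1 (22197 bp), a brake on growth factor receptors, were further coding members. Another 2, of 25328 bp (chr15:85661655-85686982) and 23958 bp (chr6:31104932-31128889), held no annotated TSS. The nearest coding genes, Ppara and Klf14, start 48001 and 145854 bp away, and the nearest hairpins, Mirlet7c-2 and Mir29b-1, lie at 19621 and 41839 bp.

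The ranks of these long domains varied, when each region was ranked by its highest fold enrichment among the 12098 regions called in all 12 libraries (rank in percent, 100 for the strongest). The domain near Ppara had a mean rank of 99.4 and its lowest library, scramble replicate 1, stood at 96.4. AL805899.1 ranked between 91.999 and 99.95. Trps1 had ranks of 63.0 and 87.0 in CPT1a knockout replicates 1 and 2, against 98.5 or more in the other 10 libraries. Gata3 stood at a rank of 53.1 in the third acetate library alone, with 98.0 or more elsewhere. Nfix ranged from 76.0 to 99.8, the domain near Klf14 from 75.4 to 99.9 and Lrig1 from 68.8 to 99.8. Lrig1 was covered over 90.3% to 99.5% of its length in scramble and 41.3% to 76.3% in CPT1a knockout. The domain near Ppara was covered over 87.0% or more in every library.

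The highest mean ranks belonged to Vmp1 (99.8, chr11:86576211-86595100), Hmga2 (99.7), Zc3h4 (99.6) and Mllt10/Skida1 (99.5), followed by the domain near Ppara. Vmp1 encodes a membrane protein of autophagy, and its 18890 bp domain also held the hairpin of Mir21a. Hmga2 encodes an architectural chromatin protein that is active in embryos and tumours. The lowest mean rank, 9.20, was that of a region without TSS 37873 bp from Zfp36l2 (chr17:84144392-84150074), followed by regions in Trpv4 (11.5), at Sept9 (12.6), in Def8 (13.7) and in Actn1 (14.4). In the region near Zfp36l2, only 397 bp were covered in all 12 libraries. A length of 5000 bp was therefore reached both by strong and by weak, fragmented regions.

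Coding TSSs lay in 1646 domains (92.7%), only lncRNA TSSs in 44 (2.48%) and no TSS in 85 (4.79%). The respective shares were 86.5%, 2.37% and 11.2% among regions of 2 to 5 kb. The TSSs of 2 or more coding genes lay in 482 domains (27.2%), against 10.4% of those regions. In total 2160 coding genes started in a domain, which is 20.2% of the 10688 with a TSS in a region called by all 12 libraries. Domains also lay near each other: 517 had another within 50000 bp, and 23 groups of at least 4 were found. One on chromosome 19 (chr19:5686582-5915154) had 7 domains, 2 of which held the nuclear lncRNAs Malat1 and Neat1. The share of the regions called in all 12 libraries that were domains ran from 5.54% on chromosome X to 22.1% on chromosomes 3 and 19.

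Several gene groups started under domains more often than the 20.2% of all coding genes. For replication-dependent histone genes, which are packed in clusters and supply histones in S phase, it was 55 of 62, in 17 domains. For actin cytoskeleton and adhesion genes it was 25 of 38, among them Actb, Actg1, Tpm1, Zyx and Itgb1. For regulators of transcription and splicing it was 16 of 25, with Srsf3, Hnrnpa1, Ccnl1 and the acetyl-lysine reader Brd2. For immediate early and AP-1 genes, which answer growth signals within minutes, it was 25 of 41, such as Jun, Junb, Fosl1, Fosl2, Myc and Id1 to Id3. Genes of epithelial-mesenchymal transition (EMT) came to 8 of 14, with Snai1, Zeb2, Vim and Foxc2. NF-kB subunits, inhibitors and targets came to 13 of 30, among them Nfkb1, Nfkbia, Tnfaip3, Ptgs2, Lif and Csf3.

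YAP and TEAD pathway genes came to 10 of 21, cytosolic ribosomal protein genes to 35 of 82 and NRF2 and stress response genes to 11 of 28. Hypoxia and glycolysis genes came to 8 of 28 and mammary epithelial identity genes to 5 of 24, namely Krt7, Krt8, Krt18, Gata3 and Tfap2a. Acetyltransferases, deacetylases and acetyl-lysine readers came to 5 of 31, close to the share of all genes, and were Ep300, Kat6a, Sirt3, Brd2 and Mllt3. The lists were chosen with earlier results of these data known and carry no test.

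**Figure D3:**
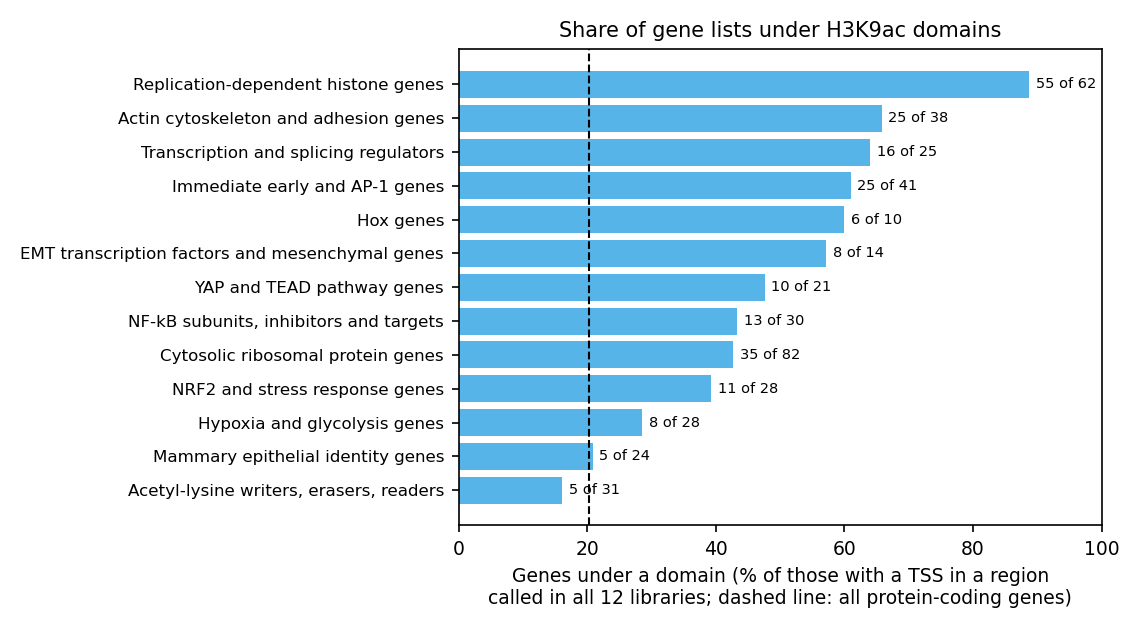
Share of each gene list that starts in a domain (bars, percent of the members with a TSS in a region called by all 12 libraries, with counts), beside the share of all coding genes (dashed line, 20.2%). Histone genes have the highest share, 55 of 62, and acetyl-lysine writers, erasers and readers the lowest, 5 of 31.

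Common sequence motifs at the summits hardly set domains apart. The GC box GGGCGG (either strand) was present in the 300 bp around the strongest summit of 41.1% of domains and of 37.6% of all regions called in all 12 libraries. The corresponding shares were 4.74% and 5.36% for the ETS motif CCGGAAG, 3.44% and 4.12% for the AP-1 motif TGANTCA, 5.41% and 5.67% for the E-box CACGTG, and 0.0564% and 0.256% for the CRE motif TGACGTCA. They were 11.4% and 12.4% for the TEAD motif GGAATG, 18.1% and 19.9% for the CCAAT box and 8.74% and 7.72% for the kappa B motif. The median window held 20 CG dinucleotides in domains with a coding TSS and 6 in the others, like the window near Klf14 printed above.

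The rank of fold enrichment was slightly lower in domains of knockout libraries. The length rule did not use this value, but it used peak extents, and in 893 domains only scramble reached 5000 bp. The domains were thus chosen in large part through scramble. The p-values against scramble over all 1774 domains are therefore not free of this choice. The median over 1774 domains was 82.9 ± 0.625 in scramble, 80.4 ± 1.35 in KAT2a knockout, 81.3 ± 0.966 with acetate and 78.95 ± 2.60 in CPT1a knockout (SD, n = 3). Against scramble, the median of CPT1a knockout differed by -3.90 (exact permutation p = 0.1, adjusted over the 4 comparisons 0.2), that of KAT2a knockout by -2.42 (exact permutation p = 0.1, adjusted 0.2) and that of acetate by -1.51 (exact permutation p = 0.2, adjusted 0.267). Acetate exceeded CPT1a knockout by 2.40 (exact permutation p = 0.3, adjusted 0.3), but with the mean in place of the highest fold of a region this difference was -0.546. No adjusted p reached 0.05, which 3 libraries against 3 cannot give, while each of the 4 differences exceeded its pooled SD (0.813 to 1.96). Scramble against the other 9 libraries gave 2.61 (exact permutation p = 0.05, 220 assignments, smallest possible 0.00455). This p-value also rests on domains chosen in large part through scramble. In domains rebuilt from the 9 lists outside scramble the difference was larger but did not pass an exact permutation p of 0.05. In domains rebuilt from the groups not compared, CPT1a knockout differed from scramble by -5.17 and KAT2a knockout by -3.72 (exact permutation p = 0.1 each).

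Base composition moved with these differences. When the trend of rank with GC content was subtracted in each library, the signs against scramble turned, to 0.842 (CPT1a knockout), 1.62 (KAT2a knockout) and 2.5 (acetate), with exact permutation p of 0.4, 0.2 and 0.1. Scramble minus the other 9 libraries then came to -1.66 (exact permutation p = 0.0909). The direction of the small shift over all domains therefore depended on whether GC content was taken into account.

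In CPT1a knockout, 341 domains (19.2%) had all 3 ranks below those of scramble, beside 16.2% of the 12098 regions, and 210 (11.8%) had all 3 above, beside 16.7%. In KAT2a knockout, 332 domains (18.7%) lay below scramble and 210 (11.8%) above, beside 15.1% and 14.6%. With acetate, 341 domains (19.2%) lay below scramble and 247 (13.9%) above, beside 17% and 15.3%. Acetate lay above CPT1a knockout in 140 domains (7.89%) and below it in 142 (8.00%), beside 5.79% and 8.51%. Scramble lay above all 9 other libraries in 199 domains (11.2%) and below them in 67 (3.78%), beside 8.53% and 5.27%. The shares of domains were thus within a few points of those of all regions, and the 3 comparisons with scramble share its libraries. A single domain cannot pass a test with 3 libraries against 3, so the domains named next are described by their values.

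The 128 ranked domains without a coding TSS, a class chosen after the values were seen and therefore not tested, stood apart in every comparison with scramble. Their median rank was 71.8, 64.7 and 71.2 in the scramble libraries, 40.6, 45.0 and 42.3 in CPT1a knockout, 52.6, 49.2 and 52.0 with acetate and 51.1, 54.8 and 54.1 in KAT2a knockout. Scramble lay highest, CPT1a knockout lowest and the other groups between them, with no overlap between these 3 levels. Relative to scramble, the mean was -26.6 in CPT1a knockout, -15.9 in KAT2a knockout and -17.9 with acetate, and acetate exceeded CPT1a knockout by 8.68. In the 1646 domains with a coding TSS these differences were -3.10, -1.78, -1.02 and 2.09.

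The direction was the same in the 1100 regions of 2 to 5 kb without a coding TSS, where the differences were -8.47, -6.26, -7.16 and 1.30, so the direction was not particular to broad domains. With the GC trend subtracted, the differences in domains without a coding TSS were -14.5, -6.96, -8.76 and 5.70. In domains rebuilt from the groups not compared they were -21.7 (52 domains), -14.4 (43), -14.9 (48) and 9.38 (118). Of the 128, 52 (40.6%) lay below scramble in all 3 CPT1a knockout libraries and 2 (1.56%) above, beside 24.05% and 10.1% of the 2204 shorter regions without a coding TSS and 16.2% and 16.7% of all regions. In KAT2a knockout 41 (32.0%) lay below and 4 above, beside 19.8% and 7.85% of those shorter regions. With acetate 49 (38.3%) lay below scramble and 5 above, beside 22.3% and 7.85%. These counts against scramble come from domains kept for a length that scramble peaks helped to reach. The shorter regions were not chosen in that way, and the counts were not repeated in rebuilt domains. Part of the excess may therefore come from the choice of domains, which was not tested. Acetate lay above CPT1a knockout in 20 of them (15.6%) and below in 5, beside 6.31% and 6.44%. Within the class, domains with a lncRNA TSS stood at 82.7 in scramble and 57.8 in CPT1a knockout, and domains without any TSS at 54.97 and 37.4.

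**Figure D4:**
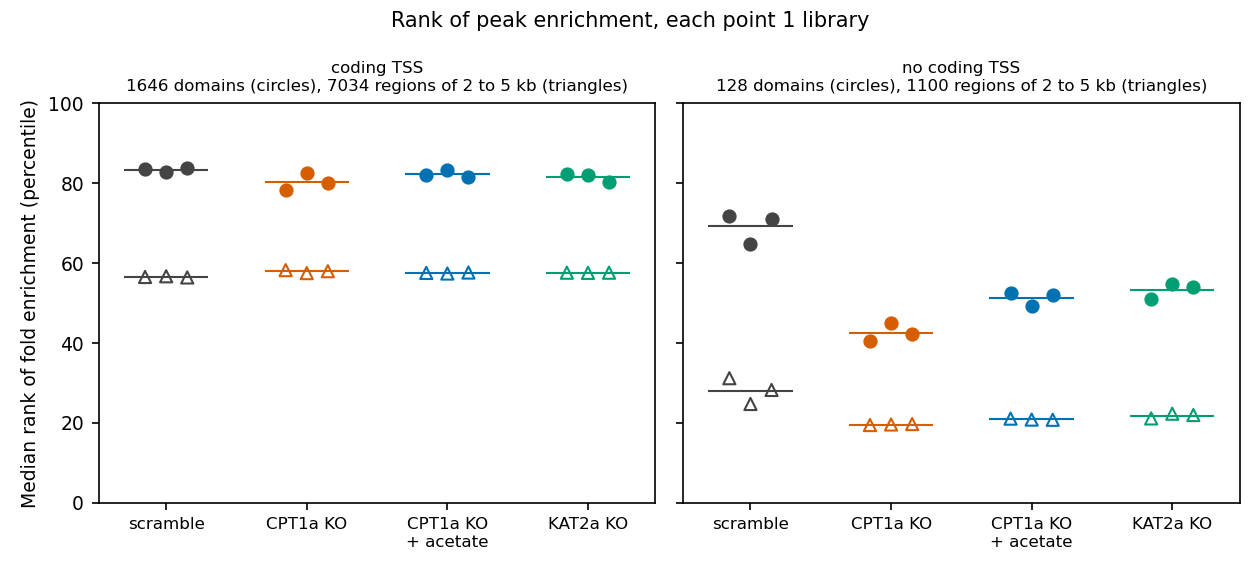
Median rank of fold enrichment per library (percentile, 0 to 100) by group, for domains (circles) and regions of 2 to 5 kb (triangles), split by whether they hold a coding TSS, with lines at the mean of 3 libraries. Domains without a coding TSS range from 64.7 to 71.8 in scramble and from 40.6 to 45.0 in CPT1a knockout, while domains with one stay between 78.3 and 83.8 in all libraries.

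Among the domains that ranked lower in CPT1a knockout, the difference was largest for Lmo7, which encodes a LIM domain protein of cell junctions (chr14:101838308-101844820). It ranked at 96.7, 92.1 and 97.4 in scramble and at 14.5, 29.4 and 30.8 in CPT1a knockout. With acetate it stood at 41.8, 44.7 and 42.5 and in KAT2a knockout at 45.7, 31.8 and 58.2. All 9 libraries outside scramble were below the lowest scramble library, and acetate was above CPT1a knockout without reaching scramble. Mndal, an interferon-inducible gene, ranked at 93.7 to 96.6 in scramble, 13.9 to 39.6 in CPT1a knockout, 26.1 to 63.3 with acetate and 58.5 to 93.1 in KAT2a knockout. A region inside Coro2a (chr4:46575475-46583852), a coronin gene, ranked at 83.9, 85.0 and 86.8 in scramble and no higher than 58.4 elsewhere. With the GC trend subtracted, the difference in CPT1a knockout was -36.5 in place of -70.3 at Mndal and -40.8 in place of -64.2 in Coro2a. The other 2 were a region 207043 bp from Spdye4c and 2010111I01Rik, with mean ranks of 92.3 and 99.6 in scramble and 26.1 and 34.6 in CPT1a knockout.

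Kmt5b, which encodes a methyltransferase of histone H4, ranked higher in every library outside scramble (chr19:3765475-3771262). Its ranks were 23.7, 80.0 and 53.2 in scramble against 98.1, 98.9 and 94.0 in CPT1a knockout, 98.3, 96.6 and 99.0 with acetate and 98.2, 95.7 and 97.0 in KAT2a knockout. The scramble libraries also lay far from each other, and with the mean fold of a region the difference from scramble was 17.4 in CPT1a knockout and 3.05 in KAT2a knockout, in place of 44.7 and 44.6. Btbd2 ranked at 25.7 to 33.9 in scramble and 64.5 to 82.8 in CPT1a knockout. Mepce/Ppp1r35, the former a capping enzyme of 7SK RNA, ranked at 27.5 to 62.3 and 89.9 to 98.6, 1810013L24Rik at 34.2 to 72.4 and 94.2 to 98.2, and Trim39, a ubiquitin ligase gene, at 37.9 to 65.2 and 93.2 to 98.1. In KAT2a knockout, Kmt5b and 1810013L24Rik had the largest positive differences, followed by Pmepa1, a brake on TGF-beta signalling, Spag6 and the organic cation transporter gene Slc22a4. Pmepa1 ranked at 33.2, 14.7 and 22.8 in scramble and at 62.4, 68.5 and 65.6 in KAT2a knockout.

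Foxc2, a forkhead factor of mesenchymal cells and EMT (chr8:121115979-121123044), ranked at 88.1, 85.2 and 78.4 in scramble. It stood at 33.2, 21.4 and 16.3 in KAT2a knockout, at 46.2, 35.8 and 21.1 in CPT1a knockout and at 41.4, 41.0 and 17.3 with acetate. Its domain was nonetheless covered over at least 70.6% of its length in all 12 libraries, and all 9 other libraries lay below scramble. The lncRNA regions Gm16579/Gm43055, C230035I16Rik and Gm14636 and the kinase gene Cdc42bpa had the other large negative differences in KAT2a knockout. C230035I16Rik ranked at 74.9 to 85.8 in scramble and at 21.7 to 35.5 in the other 9 libraries, and Gm14636 at 67.9 to 87.3 and 21.9 to 40.4.

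With acetate, the rank exceeded that of CPT1a knockout most at Gnai3, which encodes a subunit of inhibitory G proteins (chr3:108141746-108147940). It ranked at 92.2, 89.0 and 89.3 in scramble, at 55.7, 44.2 and 45.8 in CPT1a knockout and at 97.6, 89.2 and 84.6 with acetate, whereas KAT2a knockout stood at 41.6, 38.5 and 68.9. Acetate and scramble overlapped, and CPT1a and KAT2a knockout lay below both. Ranked by -log10 p, acetate minus CPT1a knockout was 22.3 at Gnai3 in place of 41.9, and 6.54 at 3110039I08Rik/Gm28119 in place of 41.2. The lncRNA domain 3110039I08Rik/Gm28119, Apobr/Cln3, the latter a lysosomal gene, Fahd1/Hagh and Csgalnact1, an enzyme of chondroitin sulfate synthesis, followed. In the other direction, Ubtd2, the cold-shock gene Ybx3, the chaperone gene Dnaja1, the 14-3-3 gene Ywhaq and a region near BC107364 ranked lower with acetate. Dnaja1 stood at 86.2, 92.7 and 82.3 in CPT1a knockout, at 71.5, 55.99 and 33.4 with acetate and at 43.8, 56.4 and 65.9 in scramble.

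Against scramble, acetate ranked above most at Kmt5b, the ubiquitin ligase gene Rnf213, Rhbdf1, Jpt1 and Btbd2. Rnf213 stood at 48.0, 31.8 and 60.2 in scramble and at 89.4, 91.3 and 88.0 with acetate. The largest negative differences were those in Coro2a and at Gm16579/Gm43055, Jmjd1c, Mndal and Lmo7. Jmjd1c, a member of a family of H3K9 demethylases, had a mean rank of 93.9 ± 3.07 in scramble, 70.5 ± 6.09 in KAT2a knockout, 37.2 ± 11.8 with acetate and 46.5 ± 3.01 in CPT1a knockout (SD, n = 3).

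**Figure D5:**
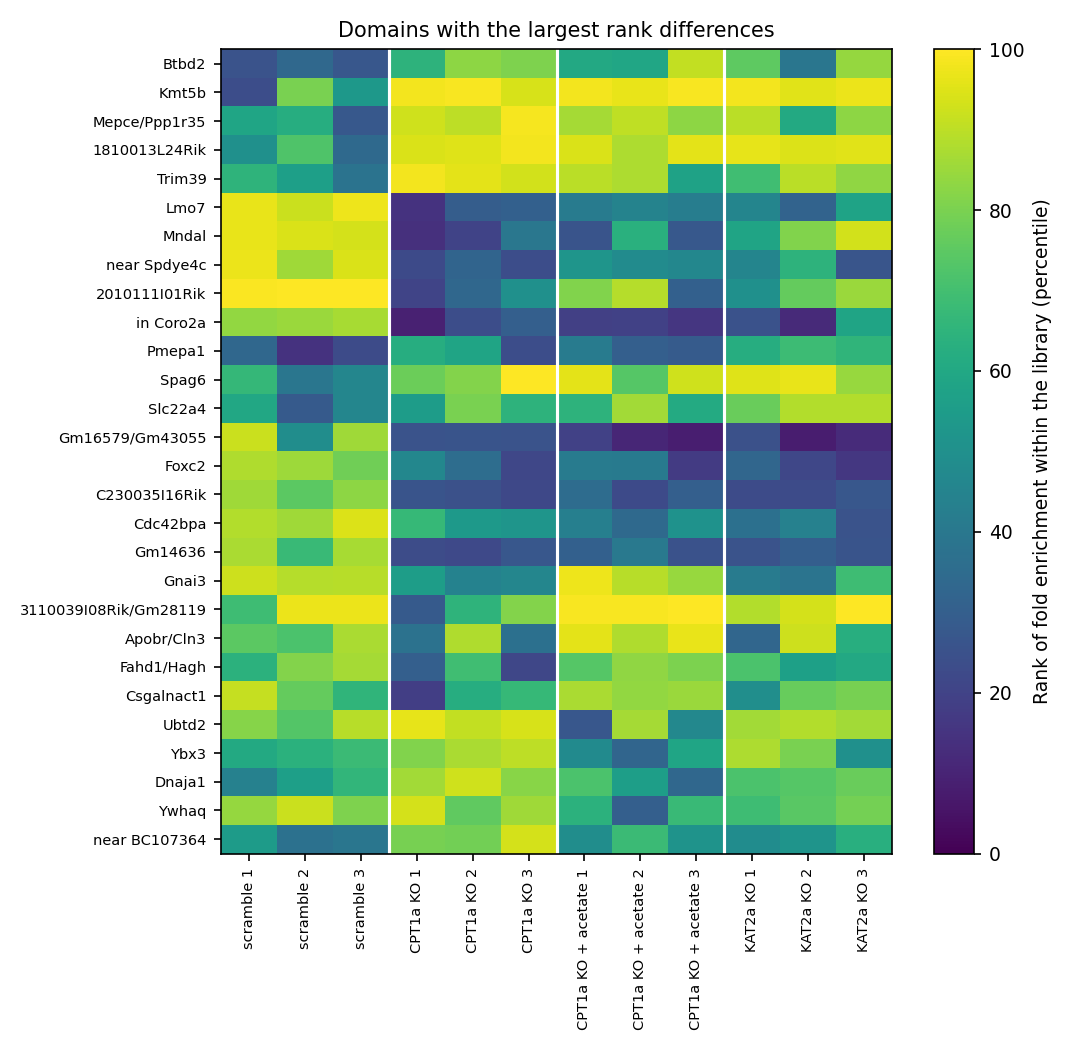
Rank of fold enrichment within each of the 12 libraries (colour, percentile from 0 to 100) for the domains with the largest rank differences in the 2 knockouts against scramble and in acetate against CPT1a knockout. Lmo7 and the region in Coro2a are bright in scramble (83.9 or more) and darker elsewhere (58.4 or less), Kmt5b is bright outside scramble (94.0 or more), and Gnai3 is bright in scramble and acetate (84.6 or more).

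Most gene lists held domains that differed in either direction. Tfap2a, the gene of the AP-2 alpha factor of epithelia (chr13:40723077-40738740), ranked at 99.9 or more in scramble and at 60.9, 75.0 and 58.8 in CPT1a knockout. With acetate it stood at 99.8, 98.6 and 99.8, and in KAT2a knockout at 99.7, 99.3 and 93.8. CPT1a knockout was thus set apart from all other libraries, although its peaks covered at least 95.8% of the domain in each of its libraries. Cd44, which encodes a hyaluronan receptor, showed a similar order, with 87.1 to 92.5 in scramble, 58.8 to 77.1 in CPT1a knockout and 83.4 to 86.7 with acetate, but one KAT2a knockout library at 33.6. Myc ranked at 42.9, 75.0 and 75.3 in CPT1a knockout and at 91.9, 96.2 and 92.9 with acetate, with scramble between 71.2 and 90.8.

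For the counts in gene lists, the shares of all regions to read them against were 16.7% above and 16.2% below scramble in CPT1a knockout, 14.6% and 15.1% in KAT2a knockout and 15.3% and 17% with acetate. Of the 25 immediate early domains, 2 lay above and 3 below scramble in CPT1a knockout, 3 above and 2 below in KAT2a knockout, and 4 above and 3 below with acetate. The median difference was -1.46, 1.25 and 1.62, beside 0.0923, 0.0310 and 0.244 over all regions. Over all 1774 ranked domains it was -2.62, -1.18 and -0.506. Fosl2, an AP-1 subunit, ranked at 60.4 to 85.5 in scramble and at 89.99 or more in the other 9 libraries, and Id2, an inhibitor of differentiation, at 82.3 to 96.8 and at 78.6 or less. Members of this list therefore lay on either side of scramble. Of 8 EMT domains, 2 lay below scramble in each of the other 3 groups and none above, beside 16.2%, 15.1% and 17% of all regions below, a difference that rests on single domains. Of 10 YAP and TEAD domains, 2 lay above and 2 below scramble in CPT1a knockout, and 3 and 1 in KAT2a knockout. Of 11 NRF2 domains, 1 lay above and 1 below scramble in CPT1a knockout, and 3 and 2 in KAT2a knockout. Of 13 NF-kB domains, 3 lay below scramble in CPT1a knockout and none above, 2 below and 1 above in KAT2a knockout, and 3 below and 2 above with acetate. Each count differs from the shares of all regions by few domains. Those below in CPT1a knockout were Tnfaip3, an inhibitor of the pathway, Cd44 and Ptgs2, which encodes a cyclooxygenase. Tnfaip3 ranked at 83.8 to 93.5 in scramble and 36.8 to 56.6 in CPT1a knockout, and Ptgs2 at 89.7 to 99.0 and 33.9 to 77.4. Nfkbia, another inhibitor, ranked at 39.8 to 65.9 in scramble and at 71.5 to 87.5 in KAT2a knockout, on the other side.

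Of the 25 actin and adhesion domains, 2 lay above and 2 below scramble in CPT1a knockout, under the 16.7% and 16.2% of all regions. In KAT2a knockout 4 lay above and 3 below, beside 14.6% and 15.1%. Cfl1, the gene of the actin-severing protein cofilin, ranked at 45.9 to 83.4 in scramble and 94.9 to 97.5 in KAT2a knockout, and Actn4 at 87.7 to 91.0 and 42.1 to 62.2. Among splicing regulators, Hnrnpa2b1 ranked at 98.2 to 99.5 in scramble, 80.9 to 95.7 in CPT1a knockout, 91.5 to 93.9 with acetate and 49.3 to 69.1 in KAT2a knockout. Hnrnph1 took the opposite course, from 77.3 to 89.5 in scramble to 94.5 or more in the other 9 libraries. Yap1, a coactivator that answers mechanical cues, ranked at 65.2 to 78.8 in scramble and 93.3 to 97.4 in CPT1a knockout. Its partner gene Tead1 ranked at 82.8 to 91.4 and 49.5 to 74.1. Hif1a, the oxygen-regulated factor, stood at 94.0 to 98.6 in scramble and at 93.0 or less elsewhere, and its target gene Vegfa at 62.0 to 69.3 in scramble against 92.2 to 97.3 with acetate.

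Histone gene domains whose groups did not overlap all lay below scramble. Of 17, 7 lay below scramble in all CPT1a knockout libraries and none above, 6 and none in KAT2a knockout, and 9 and none with acetate, beside 16.2%, 15.1% and 17% of all regions below. Acetate lay below CPT1a knockout in 1 and above in none. The median differences were -13.0, -7.95, -18.9 and -4.32, beside 0.0923, 0.0310, 0.244 and -0.373 over all regions. Over all ranked domains they were -2.62, -1.18, -0.506 and 1.72. The longest, 18510 bp (chr13:23737437-23755946), held Hist1h1c and neighbouring genes and ranked at 97.1, 91.5 and 95.6 in scramble, 87.6, 80.2 and 77.4 in CPT1a knockout, 77.7, 60.5 and 89.4 with acetate and 80.0, 85.3 and 78.1 in KAT2a knockout. The domain of Hist1h2ad and Hist1h3d ranked at 78.2 to 90.6, 63.1 to 71.6, 44.3 to 47.3 and 44.3 to 69.3 in the same order. In contrast, Hist2h4 and Hist2h3b shared a domain that ranked at 62.6 to 96.0 in scramble and 89.3 to 97.1 in CPT1a knockout. Histone genes have near-identical copies, so reads may have been placed on the wrong copy and these values are uncertain. Among 34 domains with cytosolic ribosomal protein genes, 6 lay below scramble in CPT1a knockout and none above, 3 and none in KAT2a knockout, and 4 and 1 with acetate. The shares below were near or under those of all regions (16.2%, 15.1% and 17%). The median difference in CPT1a knockout was -4.91, beside 0.0923 over all regions and -2.62 over all ranked domains. Rpl24 ranked at 97.6 to 99.2 in scramble and at 64.5 to 91.7 in CPT1a knockout, and processed copies of such genes make these values uncertain too.

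The miRNA domains whose mature sequences are printed above differed among themselves. The domain with Mir21a, whose miRNA is abundant in carcinomas, stayed at 98.3 or more in all 12 libraries. The lncRNA domain of Mir99a, Mir99ahg (chr16:77593900-77599645), ranked at 99.7, 98.4 and 99.8 in scramble, 66.2, 64.3 and 66.4 in CPT1a knockout, 64.3, 72.7 and 65.6 with acetate and 73.6, 76.3 and 89.6 in KAT2a knockout. All 9 other libraries lay below scramble, and acetate overlapped CPT1a knockout. The domain with Mir125b-1, 3110039I08Rik/Gm28119 (chr9:41577297-41590350), stood at 28.2, 65.1 and 81.4 in CPT1a knockout and 99.1, 99.2 and 99.98 with acetate. Scramble, with 69.0, 97.2 and 97.0, lay below all acetate libraries and overlapped CPT1a knockout. These 2 noncoding hosts thus differed in whether acetate and CPT1a knockout overlapped.

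Mir210, whose miRNA is known from the hypoxia response, lay in the domain Lmntd2/Rassf7 (chr7:141214063-141221884). It ranked at 30.1, 47.7 and 37.0 in scramble, 71.3, 84.0 and 75.1 in CPT1a knockout, 47.5, 61.5 and 47.1 with acetate and 61.7, 68.3 and 60.6 in KAT2a knockout. CPT1a knockout was highest and did not overlap any other group. Mir22 in Tlcd2 ranked at 78.9 to 88.5 in scramble and 96.6 to 98.4 in KAT2a knockout. The 2 let-7 domains with a shared seed, that of Mirlet7i near Mon2 and that of Mirlet7e at Spaca6, ranked at 91.0 to 97.5 and 68.2 to 71.5 in scramble and at 93.7 to 95.9 and 30.9 to 92.0 in CPT1a knockout. Mir15b and Mir16-2 share the domain Ift80/Smc4, which ranked at 90.9 or more in scramble and at 42.4, 99.9 and 97.8 in CPT1a knockout, so 1 library set its low value.

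The number of peaks into which a domain was split varied at named genes. Rps19 had 3, 5 and 9 peaks in scramble and 1 to 3 elsewhere, and Lrp1, Fbxw7, Agap3/Fastk/Tmub1 and Senp3/Tnfsf13 also had more peaks in scramble. Fewer were found at AL805899.1, with 2, 8 and 4 in scramble and 6 to 13 elsewhere, and at Lrig1, 2010300F17Rik and the domain of Hoxa5, Hoxa6 and Hoxa7. Trps1 was called as 1 peak in 10 of 12 libraries and as 2 in the others. At the length threshold, the domains of exactly 5000 bp held Parg/Timm23, Tmbim1 and Csnk1g2, with mean ranks of 84.8, 71.9 and 67.1. The longest regions outside, each 1 bp shorter, held Gspt1, Slc35e1 and Pacs2, at 81.6, 58.8 and 52.4. Between members on either side of the threshold the ranks therefore overlapped.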

How the data were processed

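H3K9ac was measured by ChIPmentation, in which Tn5 transposase tags immunoprecipitated chromatin on beads. The deposited narrowPeak lists, 1 per library without pooling of replicates, give per peak the fold enrichment over local background (a ratio), the -log10 p-value, the -log10 q-value and an integer score, all set by the authors' caller within a list. Their notes name FastQC, Bowtie2, SAMtools, deepTools and MACS2 and the builds mm10 and dm6. Their methods name fastq-mcf, BWA and, for duplicates, Picard. Labels and methods give different antibody catalogue numbers. Peak calling parameters, the versions of aligner and caller and the use of inputs in peak calling are not given in the sources used here. The 12 inputs and the Drosophila spike-in were not analysed here, so total H3K9ac was not measured.

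Groups came from the labels. Peaks were merged with at least 1 bp of overlap. Each region called in all 12 libraries took the highest fold enrichment as a rank percentile within its library. Genes, with all annotated TSSs, came from GENCODE for GRCm38, miRNAs from RefSeq. Calling depth was derived from fold and p by the formulas of MACS2, below a -log10 p of 60. Means were compared by exact two-sided permutation over libraries. The coverage and rank procedures were tested on simulated data. Named are the 10 longest domains, the 5 highest and lowest in mean rank, the 5 largest rank differences without overlap in each direction and comparison, the 5 largest differences in peak number, 3 on either side of the threshold and members of gene lists. A domain among the longest and a region among those with fewer peaks in scramble are not reported here. Members of lists were singled out for the text after their values were seen. Domains, lists and tests were chosen with earlier results of these data known. Depth is unknown beyond the calling depth, so no counting intervals are given. Alternatives covered other ranking values, GC correction, lengths of 4000 and 6000 bp, stricter q, equal depth, joined peaks, a replicate block and omission of each library. Python 3.11.15, numpy 2.4.6, pandas 2.3.3, scipy 1.17.1, pysam 0.24.0 and matplotlib 3.10.9 were used.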

Additional observations from a re-analysis of the deposited data

How the results depend on the processing

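Coverage of rebuilt domains kept its direction under all alternatives, of which the one at equal depth leaves peak extents as called. Subtracting the GC trend reversed the domain rank differences from scramble, to 0.842 (CPT1a knockout), 1.62 (KAT2a knockout) and 2.5 (acetate), and scramble minus the other 9 libraries to -1.66; the cause was not tested. Mean instead of highest fold reversed acetate minus CPT1a knockout to -0.546. Scramble minus the other 9 libraries passed a p of 0.05 when ranked by -log10 p (2.65), among every region called (4.48), by mean fold (3.72), at 4000 bp (1.35) and at a -log10 q of 5 (2.86), with exact permutation p from 0.00455 to 0.0455. All of these used domains built with the scramble lists, so their p-values are not free of the choice of domains. With domains rebuilt from the 9 lists outside scramble, an alternative chosen after seeing the data, it was 3.11 (exact permutation p = 0.123). Peaks per rebuilt domain reversed for CPT1a knockout minus scramble at 6000 bp (0.0839), at equal depth (0.111) and with peaks joined within 500 bp (0.123), and with joined peaks also for KAT2a knockout minus scramble (0.0045) and acetate minus CPT1a knockout (-0.0110).

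Domains with non-overlapping ranks numbered 867 for CPT1a knockout against scramble by -log10 p. The share of all regions was not computed by -log10 p, so this count cannot be read as particular to domains. The settings that follow leave the ranks as they were. For them the shares of all regions given before still apply, 16.7% above and 16.2% below scramble in CPT1a knockout. At 4000 bp they numbered 1125 (CPT1a knockout), 1103 (KAT2a knockout) and 1202 (acetate) against scramble and 551 between acetate and CPT1a knockout, of 3671 domains. At 6000 bp they numbered 273, 275, 285 and 134 of 835. In rebuilt domains, chosen after seeing the data, the first 3 counts were 204 of 607, 151 of 511 and 171 of 506. These counts moved because more or fewer domains were ranked, except the first, whose cause was not tested. Among recomputed rank differences of single named domains, 79 moved by more than the spread between replicates, 321 did not and none changed sign. For domains without a coding TSS, 17 moved and 43 did not, and after GC correction all 4 were closer to 0.

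Leaving out 1 library gave the following ranges. Coverage differences ran from -16.8 to -6.21 (CPT1a knockout), -5.19 to -0.444 (KAT2a knockout) and -5.77 to -0.802 (acetate) against scramble, and 2.18 to 10.6 between acetate and CPT1a knockout. Domain rank differences ran from -5.26 to -2.66, -2.89 to -1.64, -2.06 to -1.17 and 1.15 to 3.75, and scramble minus the other 9 from 2.14 to 2.96, with an exact permutation p under 0.05 without CPT1a knockout replicate 1 (0.0364), acetate replicate 2 (0.0182) or KAT2a knockout replicate 2 (0.0485). These p-values too rest on domains built with the scramble lists. Peaks per domain ran from -0.365 to 0.0577, -0.453 to -0.0267, -0.176 to 0.309 and 0.125 to 0.353. The first reversed without scramble replicate 2 (0.0577) or 3 (0.0130), and the third without scramble replicate 1 (-0.119) or acetate replicate 2 (-0.176). Non-overlapping domains ran from 697 to 763, 689 to 748, 733 to 800 and 425 to 508, since 2 libraries overlap less often than 3. The shares of all regions were not computed for these counts.

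Deviations of libraries with the same replicate number correlated at -0.0710 to 0.0702, and those with different numbers at up to 0.122. These values give no sign of pairing by number, but they cannot exclude a shared culture or day. With the replicate block, the differences were as above and the exact p-values over sign flips of 3 pairs were 0.25 to 1. Since 0.25 is the smallest they can give, this fit says nothing about stability. With the gaps between groups in calling depth, and with lists that hold peaks past a threshold alone, a missing edge cannot be told from a weak one.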
